A study of Mus musculus with 3 samples.

Results

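Cathepsins are the main peptidases of the endosome and lysosome, and their transcripts were examined in LPS-treated mouse macrophages. The genes were taken as a list of 9 mouse symbols, Ctsa, Ctsb, Ctsc, Ctsd, Ctsh, Ctsl, Ctso, Ctss and Ctsz, by matching the table's Ensembl identifiers to symbols, out of 54331 features in all. Each symbol matched 1 feature. All 9 had a mean of at least 10 normalized counts over the libraries, the filter that 13877 features passed. Ctsh lay nearest to that filter, with 10.3 in its lowest library.

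There were 3 mRNA sequencing libraries of RAW 264.7 cells, a male BALB/c mouse macrophage line, and every library came from cells exposed for 5 h to 100 ng/mL LPS, the bacterial lipid that TLR4 recognizes. The control library came from cells labelled wild-type that carried a control shRNA. In the other 2 libraries, labelled GIV-depleted, the cells carried a different shRNA each (shRNA 1 and shRNA 2) against GIV, also called Girdin, a G-protein modulator and the product of Ccdc88a. The question is how cells short of GIV, a modulator of TLR4 signalling by the series title, respond to LPS. No cells without LPS were analysed here, and the labels do not say whether the shRNA lines are clones or pools.

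Cathepsins are made as inactive precursors, tagged with mannose 6-phosphate in the Golgi and activated in the acid lumen of endosomes and lysosomes. Ctsb, Ctsc, Ctsh, Ctsl, Ctso, Ctss and Ctsz encode papain-like cysteine peptidases, Ctsd encodes an aspartic peptidase and Ctsa a serine carboxypeptidase. In macrophages they degrade ingested and autophagic material, trim antigens and the invariant chain of MHC class II, and cut the endosomal Toll-like receptors into their active form.

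Promoter windows from RefSeq (GRCm38.p6, 250 bases before to 50 bases after a start) were found for 7 of the 9 genes, in 8 windows, and not for Ctsb and Ctsh. The letters TCACGTGA, a palindromic E-box at the heart of the element bound by the lysosomal regulators TFEB and TFE3, lay in the Ctsd window at positions -99 to -92 and in a Ctsa window at -13 to -6 and again at 5 to 12, counted from the start. These letters, searched on both strands, lay in 2 of the 8 cathepsin windows and in 0.974% of all 32851 windows. Both stretches, with these letters in capitals, overlap exons of annotated transcripts (Ctsd at chr7:142387909-142387936, minus strand, and Ctsa at chr2:164833758-164833785, plus strand):
Ctsd: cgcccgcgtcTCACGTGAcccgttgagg
Ctsa: tgTCACGTGAtgcagatgcTCACGTGAc

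A further pair of stretches belongs to Ctss, an interferon-inducible cathepsin, and to Ctsc, the 1 cathepsin whose values lay well above the control in 1 shRNA library and well below it in the other. The Ctss stretch (chr3:95526726-95526785, plus strand, positions -60 to -1) has in capitals a GC box, GGGCGG, and the core letters of an interferon-stimulated response element, GAAANNGAA. The Ctsc stretch (chr7:88277845-88277944, plus strand, positions -240 to -141) has in capitals the letters of a STAT site, TTCNNNGAA, and an ETS site, GAGGAAGT, the latter on the opposite strand.
Ctss: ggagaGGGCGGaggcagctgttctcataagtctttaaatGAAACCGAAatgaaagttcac
Ctsc: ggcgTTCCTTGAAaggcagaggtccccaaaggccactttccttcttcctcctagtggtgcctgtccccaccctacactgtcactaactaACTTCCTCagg

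Over all windows, the interferon letters lay in 8.56%, the STAT letters in 8.3%, the ETS letters in 3.2% and the GC box in 35.7%. Among the 8 cathepsin windows these numbers were 2, 1, 2 and 5. The plain E-box CACGTG, which the palindrome contains, lay in 3 windows (7.15% of all), an NF-kB pattern GGNNTTTCC in 3 (5.82%) and an AP-1 pattern TGANTCA in 0 (7.81%). Every pattern was searched on both strands. A match describes letters in these windows, and binding was not measured.

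Values below are normalized counts, and where 3 are given without labels they stand in the order control, shRNA 1, shRNA 2. Library totals lay between 47349097 and 49756670 normalized counts, and 1 read was worth about 0.931 to 1.11. Counting error is therefore small for 8 of the cathepsins, whereas Ctsh rested on few reads. Ccdc88a, the targeted gene, had values of 2580 (control), 1734 (shRNA 1) and 2561 (shRNA 2). Its level in the library labelled shRNA 2 thus goes against the label, which touches each direction given below for that library, so every cathepsin is also given for shRNA 1 alone. With 1 control there is no replicate error on the control side. Mitochondrially encoded transcripts made up 1.43%, 0.995% and 1.14% of the totals in that order. All 9 macrophage markers were detected, with summed values of 453077, 343656 and 366253. Neutrophil and mast cell (4 of 8 listed at 0, among them Elane and Ly6g), fibroblast (1 of 5, Col3a1) and epithelial markers (3 of 4, with Epcam) had sums of 0 to 78.1 in every library. The labelled cell type thus had its markers in every library. The macrophage sum was highest in the control, as were most cathepsins, and its part in the cathepsin values was not tested. Lyz2, with 199781, 121997 and 138145, had the largest value of these markers in the control. Cd68, Lyz2, Csf1r, Mrc1, Fcgr1 and Spi1 had the control highest, whereas Adgre1 (7150, 6272 and 7912), Itgam and Cd14 had it in between. In bulk RNA, fewer cells of a kind and less RNA per cell cannot be told apart.

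Most cathepsin transcripts were less abundant in both libraries labelled GIV-depleted than in the control. The control was the highest library for 6 of the 9 (Ctsb, Ctsd, Ctsl, Ctso, Ctss and Ctsz) and the lowest for 1 (Ctsh), while Ctsa and Ctsc had the control in between. Across all 13877 features the control was highest in 35.2% and lowest in 34.9%. The median log2 difference over both libraries was -0.28 for the cathepsins against -0.00147 for all features, with -0.36 from shRNA 1 and -0.23 from shRNA 2, which share the control. With shRNA 1 alone, 8 of the 9 cathepsins lay below the control by any size, as did 49.8% of all features. The list was chosen with earlier results of these libraries known, so its counts describe it and are no independent evidence.

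No cathepsin passed an adjusted p of 0.05 in limma, where 0 of 13877 features passed (0%). At an unadjusted p under 0.05, limma had Ctsd, Ctsl and Ctso as lower and no cathepsin as higher, against 2.42% of all features lower and 4.52% higher. Over the alternative settings run, the members' adjusted p in limma ranged from 0.343 to 0.997. The differences are therefore given as values of these libraries.

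**Figure D1:**
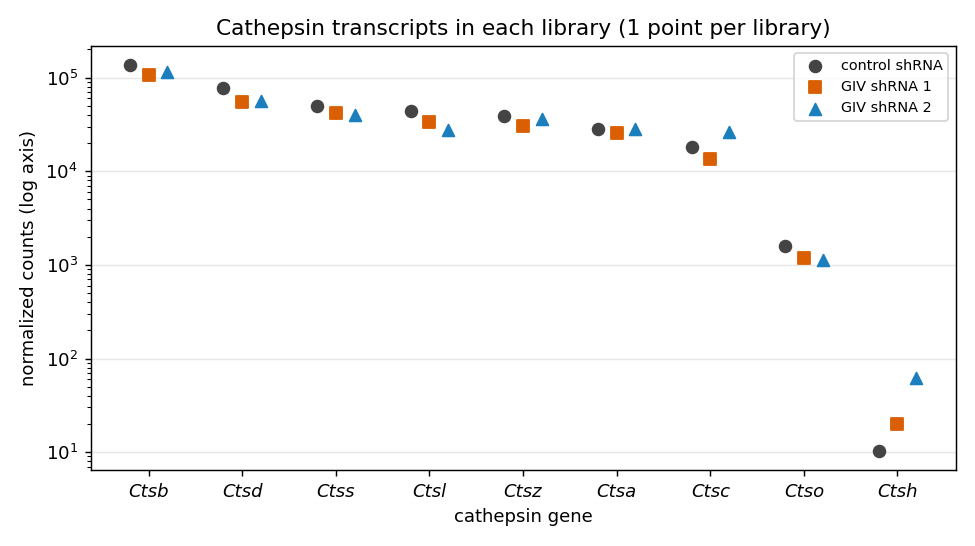
Normalized counts (log axis) of the 9 cathepsin genes, 1 point per library, ordered by the control. The control point is the highest of the 3 for 6 genes, Ctsc is highest in the library labelled shRNA 2, and Ctsh lies between 10.3 and 62.4, far below the others.

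Ctsd (ENSMUSG00000007891.16, chromosome 7, 142375911 to 142388038, GRCm38) encodes cathepsin D, the main aspartic endopeptidase of the lysosome. Its normalized counts were 77016 (control), 55025 (shRNA 1) and 56244 (shRNA 2). Both shRNA libraries thus lay close together and below the control, at 71.4% and 73.0% of its value. The log2 difference was -0.47 (SE 0.14, adjusted p = 0.652 in limma). With a trend in GC content and transcript length removed it was -0.35. A gene model on the same strand, Gm49369, overlaps it, with 304, 35.7 and 93.1 normalized counts, few beside those of Ctsd.

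Ctsa (ENSMUSG00000017760.16, chromosome 2, 164832873 to 164841032) encodes cathepsin A, the serine carboxypeptidase that also shields the sialidase Neu1 and the galactosidase Glb1 in a lysosomal complex. It stood at 28315 normalized counts in the control, 25827 with shRNA 1 and 28547 with shRNA 2. The control lay between the other libraries, and the log2 difference of -0.06 (SE 0.14) was smaller than its error. The direction turned with the GC and length trend removed (0.0046). Its complex partners had the control highest, with 2533, 1983 and 2333 for Neu1 and 1752, 1322 and 1548 for Glb1.

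Among the cysteine endopeptidases, Ctsb (ENSMUSG00000021939.8, chromosome 14, 63122462 to 63145923) encodes cathepsin B, which also acts as a carboxypeptidase. Its values were the highest of the family before any division by length, at 135621 normalized counts (control), 105927 (shRNA 1) and 115237 (shRNA 2). The shRNA libraries had 78.1% and 85.0% of the control, and the log2 difference was -0.30 (SE 0.16, adjusted p = 0.759 in limma).

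Ctsl (ENSMUSG00000021477.9, chromosome 13, 64359337 to 64370890) encodes cathepsin L, an endopeptidase of autophagic and endocytosed proteins. The control had 43533 normalized counts of it, shRNA 1 had 33255 and shRNA 2 had 27314. The last of these was the lowest, and the shRNA libraries had 76.4% and 62.7% of the control. Among the 9 cathepsins, the lowest ratio to the control was that of Ctsl with shRNA 2. The log2 difference was -0.53 (SE 0.18, adjusted p = 0.69 in limma), or -0.66 once the GC and length trend was removed.

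Ctss (ENSMUSG00000038642.10, chromosome 3, 95526786 to 95556403) encodes cathepsin S, the endopeptidase that trims the MHC class II invariant chain. Its 3 values were 49524, 41796 and 39981 normalized counts in the same order. Both shRNA libraries lay below the control, at 84.4% and 80.7%, and differed little from each other. The log2 difference was -0.28 (SE 0.13, adjusted p = 0.745 in limma). Cd74, the invariant chain itself, had 8122, 8456 and 8596, so the substrate's values were slightly above the control where those of the peptidase were below it.

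The exopeptidases were less alike. Ctsz (ENSMUSG00000016256.10, chromosome 2, 174427493 to 174439039), the carboxypeptidase cathepsin Z, also named X, stood at 38916 (control), 30319 (shRNA 1) and 35977 (shRNA 2). The control was highest, but the shRNA 2 library reached 92.4% of it. Its log2 difference of -0.24 (SE 0.17) shrank to -0.06 with the GC and length trend removed. Under that setting and under quantile normalization the shRNA 2 library lay slightly above the control, by 0.047 and 0.023 on the log2 scale.

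Ctsc (ENSMUSG00000030560.17, chromosome 7, 88278085 to 88310888) encodes cathepsin C, or dipeptidyl peptidase I, which activates the serine proteases of granulocytes and cytotoxic cells. Its normalized counts were 18257 (control), 13428 (shRNA 1) and 26332 (shRNA 2). The shRNA 1 library was thus lower and the shRNA 2 library higher, at 73.5% and 144% of the control, and the mean log2 difference was 0.04 (SE 0.44, adjusted p = 0.991 in limma). The sign of that mean turned with the GC and length trend removed (-0.028). Of the proteases that cathepsin C activates, Gzma, Gzmb and Elane were listed at 0 in every library and Prtn3 had at most 4.6.

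Ctsh (ENSMUSG00000032359.14, chromosome 9, 90054152 to 90076089), an aminopeptidase, had 10.3, 20.1 and 62.4 normalized counts. It was the 1 cathepsin with the control lowest, and its log2 difference was 1.70 (SE 0.83, adjusted p = 0.746 in limma). That value was 0.90 from shRNA 1 alone and 2.49 from shRNA 2 alone, and 1.20 with a pseudocount of 10, since the control value stands for about 11 reads. The class II gene H2-Aa had the same order at low level, with 1.97, 16.5 and 75.5. So had the B cell marker Ms4a1, with 6.56, 8.87 and 20.2, and Cd79a was also highest with shRNA 2, with 1.87, 1.12 and 6.72. Cd3e and Nkg7, markers of T cells and cytotoxic cells, were listed at 0 in every library. The part of the B cell markers in the Ctsh values was not tested.

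Ctso (ENSMUSG00000028015.3, chromosome 3, 81932601 to 81956725), a widely expressed cathepsin whose function is little defined, had 1580, 1192 and 1134 normalized counts. Both shRNA libraries lay below the control, at 75.5% and 71.8%, with a log2 difference of -0.44 (SE 0.15, adjusted p = 0.708 in limma).

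**Figure D2:**
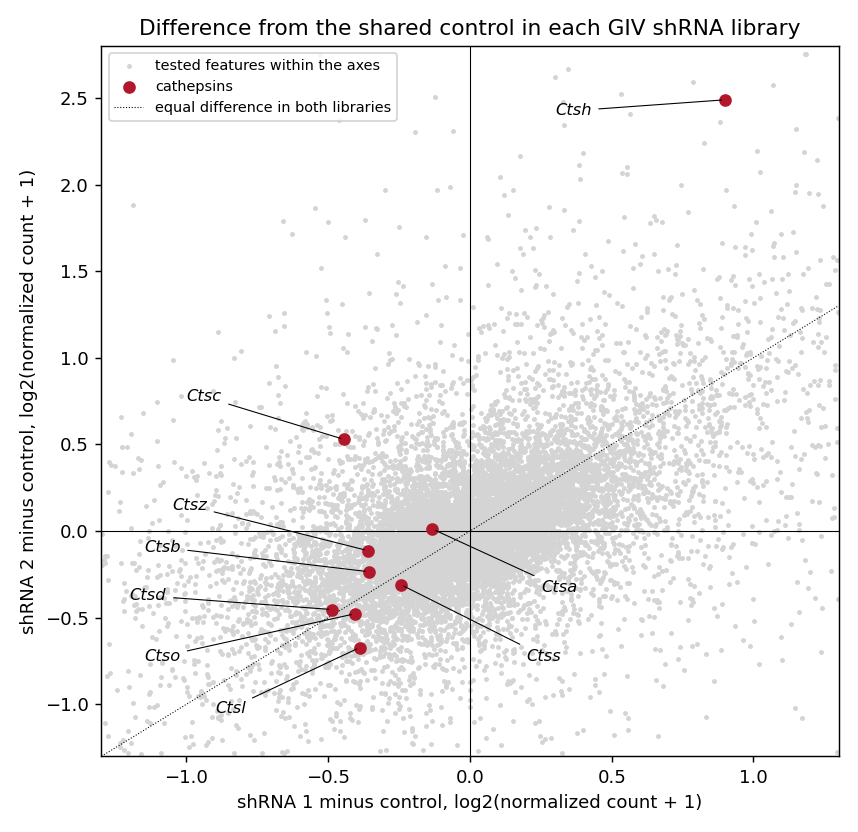
Difference from the control on the log2(normalized count + 1) scale in the library labelled shRNA 1 (horizontal) and shRNA 2 (vertical), with the 9 cathepsins in red and tested features in grey (features beyond the axes are not drawn). Ctsd, Ctso, Ctsl, Ctsb, Ctss and Ctsz lie below 0 on both axes, and Ctsc lies at -0.44 and 0.53. Both axes share the control, so grey points also follow the diagonal.

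Few cathepsins differed by 1.5-fold or more in a comparison of single libraries, which has no test. With shRNA 1 against the control, 0 cathepsins were lower by this rule (7.85% of features were) and 1 was higher, Ctsh (8.83%). With shRNA 2 against the control, 1 was lower, Ctsl (7.19%), and 1 higher, Ctsh (9.99%). Between the shRNA libraries, Ctsc was 1.96-fold and Ctsh 3.01-fold higher with shRNA 2 (8.96% of features were higher by the rule), and 0 were lower (6.54%). The remaining 7 cathepsins differed between the shRNA libraries by -0.28 (Ctsl) to 0.25 (Ctsz) on the log2 scale. Their differences from the control ran from -0.67 (Ctsl, shRNA 2) to 0.012 (Ctsa, shRNA 2). Of these 7, 6 had the same sign in both libraries. Leaving out Ctsc and Ctsh, which differed most between the shRNA libraries, favours equal signs, as does the shared control. The count is therefore no evidence of agreement. Over all features the control was highest in 35.2% and lowest in 34.9%.

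Levels of different genes were compared per kilobase of exon, using the union of each gene's annotated exons. On this scale Ctss stood first in the control, with 36469 normalized counts per kilobase, followed by Ctsd with 32759, Ctsz with 27006 and Ctsb with 22413. These 4 ranked 59, 69, 95 and 126 among the 13877 tested features. Ctsl had 6709, Ctsa 6005 and Ctsc 3143, whereas Ctso had 308 and Ctsh 2.29. Neighbours in this order cannot be told apart firmly, since the control has no replicate and the transcripts in use are not known.

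The same 4 genes led the family in every library, with Ctss first. Ctss made up 27.1% of the summed cathepsin level per kilobase in the control, 29.1% with shRNA 1 and 26.2% with shRNA 2. Ctsd made up 24.3%, 22.1% and 21.3%, so its share was highest in the control. Ctsb made up 16.6%, 16.5% and 16.9%. Ctsc differed most in proportion among the abundant members, with 2.33%, 2.18% and 4.03%. Its shares were 4.41%, 4.15% and 7.66% with the shortest principal transcript, so shRNA 2 was highest on either length. The length used moved these shares: with the shortest principal transcript, Ctsl made up 13.3% of the control's sum in place of 4.98%. Without division by length, all 9 cathepsins together made up 0.80% of the control's normalized counts, 0.617% with shRNA 1 and 0.699% with shRNA 2.

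**Figure D3:**
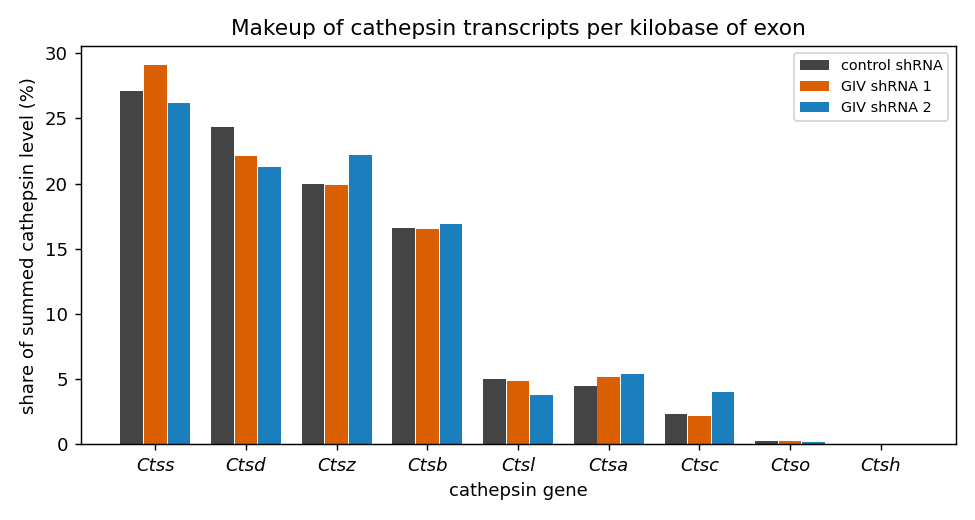
Share of each gene in the summed cathepsin level of a library (percent, normalized counts per kilobase of exon union), 1 bar per library. Ctss, Ctsd, Ctsz and Ctsb hold most of the sum in all 3 libraries, and the Ctsc bar is highest for shRNA 2, at 4.03%.

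Of 14 further cathepsin genes, 10 were listed at 0 in every library, among them Ctsg and Ctsw of granulocytes and cytotoxic lymphocytes and several placental cathepsins, and Cts8 had at most 3.85. The other 3 were tested. Ctsf, a cysteine cathepsin, had normalized counts of 908, 740 and 669. Ctsk, the collagen-degrading cathepsin of osteoclasts, had 240, 159 and 191. Both had the control highest. Ctse, an aspartic cathepsin of endosomes, was different, with 82.2, 285 and 244, at a log2 difference of 1.67 (SE 0.28, adjusted p = 0.374 in limma). The aspartic cathepsins Ctsd and Ctse thus lay on opposite sides of the control in both libraries.

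Ctsk and Ctss are neighbours on chromosome 3, 17423 bases apart, and both had the control highest. The other 7 osteoclast markers (1 listed at 0, Calcr) summed to 6088 in the control, 12847 with shRNA 1 and 3134 with shRNA 2. Mmp9 made up most of that sum, with 4632, 10440 and 2188. Members differed in order, and Ocstamp, with 282, 184 and 196, had the control highest and shRNA 1 lowest, as had Ctsk. The part of these markers in the Ctsk values was not tested.

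The genes around the cathepsins were grouped by role, and 0 members of any group passed in limma. Among the other lysosomal peptidases the control was highest for 6 of 7 and lowest for 1, with a median log2 difference of -0.14. Over all features tested the control was highest in 35.2% and lowest in 34.9%, with a median of -0.00147. Lgmn, the asparaginyl endopeptidase that cuts several cathepsin precursors, had 18575, 14530 and 13740 normalized counts, a difference of -0.39 (SE 0.12). Tpp1, a tripeptidyl peptidase, was close to the control with 5882, 5577 and 5791. Napsa, an aspartic peptidase, was the 1 with the control lowest, with 1321, 1388 and 1984. With equal library totals the control was highest for 3 of the 7.

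The inhibitors showed no common direction. Of 20 genes listed, 2 had no feature, 11 were under the filter and 7 were tested, of which 3 had the control highest and 1 lowest (median -0.08). Beside these stand 35.2% highest and 34.9% lowest over all features. Cst3, the secreted inhibitor cystatin C, had 36473, 33948 and 23686, so that the shRNA 2 library was the low one. Cstb, a cytosolic inhibitor, had 6153, 5292 and 5620. Cst7, cystatin F, which acts on cathepsin C inside lysosomes, had 96.2, 195 and 187, a log2 difference of 0.98 (SE 0.28, adjusted p = 0.646 in limma). Both shRNA libraries thus held about the same Cst7 level, whereas Ctsc differed between them.

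For mannose 6-phosphate tagging and sorting, the control was highest for 4 of 14 genes and lowest for 4, and the median was -5.62e-05. All features had the control highest in 35.2% and lowest in 34.9%, with a median of -0.00147. The receptors M6pr (40951, 42226 and 37550) and Igf2r (11230, 10056 and 11628) lay close to the control. Gga3, an adaptor that loads these receptors into vesicles, stood apart with 1161, 4076 and 4003 normalized counts. Its log2 difference was 1.80 (SE 0.13, adjusted p = 0.16 in limma). Gga3 overlaps Mrps7 on the opposite strand, which had 2776, 2834 and 2875.

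Genes of lysosome acidification had the control highest in 12 of 19 and lowest in 4, with a median of -0.115. Over all features these shares were 35.2% and 34.9%. Tcirg1, a proton pump subunit, had 42239, 29411 and 29518, a difference of -0.52 (SE 0.13, adjusted p = 0.568 in limma), and so resembled Ctsd in its values relative to the control. Atp6v0a1, an alternative to Tcirg1 in the pump, went the other way with 1835, 3725 and 2063. Atp6v0d2 was high with shRNA 1 and low with shRNA 2, with 87.0, 183 and 32.7.

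Of 5 transcription factors of lysosomal and macrophage genes, the control was the highest library for 2, Tfe3 (6343, 5899 and 6008) and Spi1 (14210, 12635 and 12232), and lowest for 0. Across all features the control was highest in 35.2% and lowest in 34.9%. Tfeb had 163, 167 and 107, so that 1 library differed. Tfec was low in the library labelled shRNA 1, with 144, 40.2 and 171, as was Ctsc. Among 16 complex partners and substrates, 11 were tested. The control was highest for 7 and lowest for 3 (median -0.19), beside the same 35.2% and 34.9%. Grn, progranulin, which lysosomal cathepsins cut into granulins, had 49206, 37829 and 38206. Psap, the saposin precursor cut by cathepsin D, had 29402, 23594 and 24207. Both thus had the order seen for Ctsd, at -0.37 (SE 0.13) and -0.30 on the log2 scale. Unc93b1, the chaperone of endosomal Toll-like receptors, had 22819, 18964 and 17589.

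**Figure D4:**
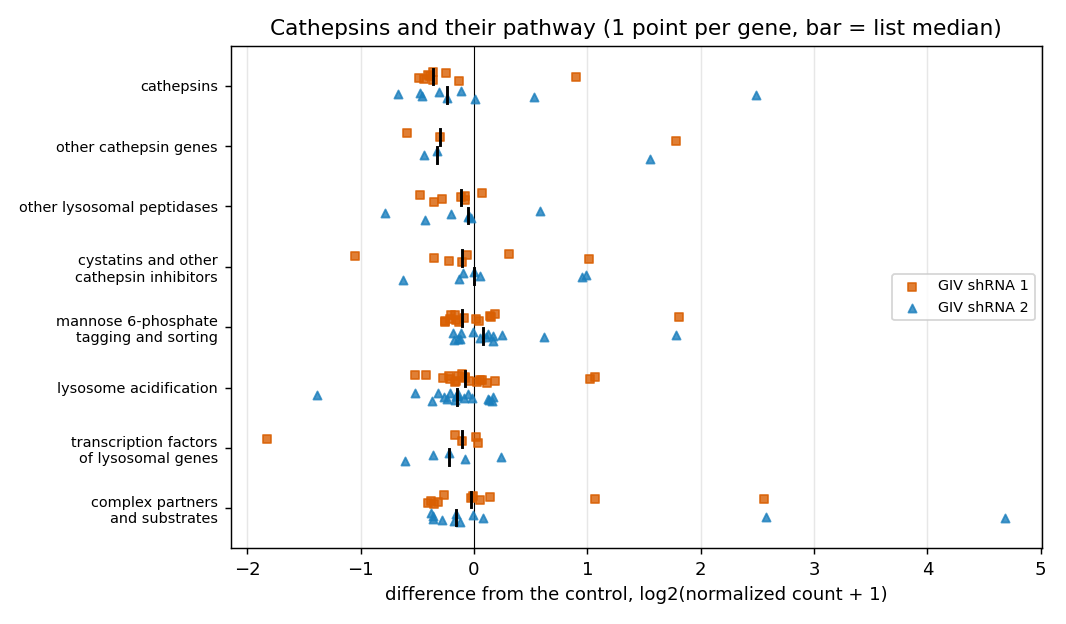
Difference from the control on the log2(normalized count + 1) scale for the tested genes of each group, with squares for shRNA 1, triangles for shRNA 2 and black bars for the medians. The cathepsin medians lie at -0.36 and -0.23, and the sorting group has Gga3 at 1.81 and 1.78 to the right of all its other members.

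Genes with the most similar pair of differences were sought among 6254 protein-coding features with a mean of at least 1000, by Euclidean distance of the differences from the control. For Ctsd these were Atp13a1 (7902, 5607 and 5768 normalized counts), Ap5z1 and Trex1, at distances of 0.00985 to 0.0194. For Ctsl they were Fam129b, Gm8909 and Tmbim1, and for Ctss they were Ccdc22, Mark4 and Afg3l1. Within a distance of 0.1 lay 47 features for Ctsd, 33 for Ctsl and 207 for Ctss. With 3 libraries many genes therefore share each pattern.

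The median base composition of the cathepsins lay near that of other genes, but single members ranged from 41.1% to 57.3% GC. Their median GC content was 49.2%, against 49.3% for 11611 tested protein-coding features, and the median longest transcript was 3220 against 3399 bases. Highest in GC were Ctsz (57.3%), Ctsd (55.9%) and Ctsa (54.5%). With the GC and length trend removed, their log2 differences went from -0.24, -0.47 and -0.06 to -0.06, -0.35 and 0.0046. That of Ctsl (44.3%) went from -0.53 to -0.66. Genes overlap several cathepsins on the opposite strand, namely Pltp and Neurl2 at Ctsa, Fdft1 at Ctsb and Nelfcd at Ctsz. The kit marks strand, but the use of strand in counting was not given in the sources used here. Each of these genes had at most 2249 normalized counts, few beside the cathepsin in its locus.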

How the data were processed

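RNA of RAW 264.7 cells was sequenced in 3 libraries prepared with a stranded mRNA kit, per the labels' protocols. The deposited table holds normalized counts made by the authors, 1 column per library, handled as a signal scale. Per the submitters' processing notes the tools included Salmon, DESeq and DESeq2 and the build was GRCm38, with no settings or roles, so how libraries were scaled was not given in the sources used here. The series text calls the shRNA libraries biological replicates made with different shRNAs, and nothing says whether they came from separate experiments. A p-value thus covers no more than the spread seen among these samples. That spread holds any difference between the shRNAs as well as any technical one. Columns were assigned to samples by name, and groups were taken from the sample titles.

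Identifiers were matched to GENCODE M21, which named 54097 of 54331 features. The comparison of both libraries labelled GIV-depleted with the control used limma 3.58.1 (R 4.3.3) on log2(value + 1), for the 13877 features with a mean of at least 10, as a two-sided test with a trended prior variance and Benjamini-Hochberg adjustment over these. Fold changes on this scale understate the change of low genes. There is 1 residual degree of freedom, from the difference between the 2 shRNA libraries. These carry different shRNAs and differ in Ccdc88a (1734 with shRNA 1 and 2561 with shRNA 2). The spread assumed for the lone control combines the difference between the shRNA libraries with the prior variance, which is drawn from all tested features. For Ctsd the shRNA libraries differed by 0.032 on the log2 scale, while the SE was 0.14. Single-library differences have no test. The fit was tested on simulated data.

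The 8 gene lists, the cathepsins among them, and the settings were chosen with earlier results of these data known. Named are the cathepsins, the members with the largest differences in each list (at most 4), set partner genes such as Psap and Cd74, and the 3 nearest features of Ctsd, Ctsl and Ctss. Atp6v0d2, Prtn3, Elane, Gzma, Gzmb, Ms4a1, Cd79a, Cd3e, Nkg7, Mmp9, Ocstamp, Cts8, Ctsg, Ctsw, macrophage markers other than Spi1 and overlapping genes are named outside this rule, after their values were seen. Alternatives covered the pseudocount, filter, scaling, quantile normalization, a GC and length trend, the variance trend, gene length and leaving out each shRNA library. A cell type marker is not reported here.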

Additional observations from a re-analysis of the deposited data

How the results depend on the processing

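Depth limits Ctsh alone among the cathepsins, and the single control limits every comparison. Of the 9 cathepsins, 7 kept the sign of their mean difference under all alternatives run, and none passed in limma under any. The exceptions were Ctsa, at 0.0046 with the GC and length trend removed, and Ctsc, at -0.028 there. Leaving out 1 shRNA library gave -0.13 to 0.012 for Ctsa, -0.44 to 0.53 for Ctsc and 0.90 to 2.49 for Ctsh, with no test. No paired analysis was possible because there is 1 control library, so the groups can share at most 1 replicate number.

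After removal of the GC and length trend, the single-library differences became -0.35 (shRNA 1) and -0.34 (shRNA 2) for Ctsd, and -0.17 and 0.047 for Ctsz. With quantile normalization, Ctsz was at 0.023 for shRNA 2, and shRNA 2 minus shRNA 1 was 0.15 for Ctsd and 0.071 for Ctss. The cause of these shifts was not tested. The count of features past an adjusted p of 0.05 in limma was 1 (Gm10443, a pseudogene listed at 0 in the control) with a filter at 50, with equal totals, with trimmed mean scaling and after the GC and length correction. At an unadjusted p under 0.05 in limma there were 963 of 13877 features. Without a filter there were 2716, with only the 30516 of 54331 features at 0 in every library left out. The cause of this rise was not tested.

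Cathepsins with the control lowest numbered 0 with a filter at 50, which removes Ctsh, and 1 to 3 without either shRNA library. For the further cathepsin genes the median was -0.40 with quantile normalization, -0.23 with the GC and length trend removed, and -0.33 to -0.29 without either library. For the other peptidases, 3 had the control highest with equal totals, and the median was -0.11 to -0.051 without either library. For the inhibitors without a filter, 5 had the control highest and 2 lowest. With equal totals 2 had it lowest. Without either library 4 to 5 inhibitors had it highest and 2 to 3 lowest, at a median of -0.10 to -0.000792. For sorting genes these counts were 6 to 8 highest and 6 to 8 lowest, and for acidification 4 to 7 lowest. For transcription factors they were 3 to 4 highest and 1 to 2 lowest, at a median of -0.22 to -0.10. For partners and substrates without a filter, 5 had the control lowest and the median was -0.086. With a filter at 50, which removes H2-Aa and H2-Eb1, 1 had it lowest. The median for this group was -0.16 to -0.022 without either library.

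Shares of the control's cathepsin sum changed with the length used. With the longest transcript they were 19.2% for Ctsb, 24.5% for Ctss and 18.1% for Ctsz. Without division by length they were 34.5% for Ctsb, 19.6% for Ctsd, 11.1% for Ctsl, 12.6% for Ctss and 9.91% for Ctsz. With the shortest principal transcript, a choice made after seeing the data, they were 17.2%, 21.8%, 13.3%, 22.0% and 16.3% in that order.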
